A study of Homo sapiens with 4 samples.

Results

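The nuclear genes of the oxidative phosphorylation complexes were followed through 4 RNA-seq libraries from HEK 293, a human cell line derived from embryonic kidney. A name rule on the gene symbols (NDUFA, NDUFB, NDUFC, NDUFS or NDUFV with a number, the SDH genes, UQCR, COX with a number from 4 to 8, and ATP5) took 91 of 24934 gene rows. Of these, 82 were genes of complex subunits and 9 were read-through transcripts, pseudogenes or genes that only share the name. Complex I had 38 of the subunit genes, complex II 4, complex III 9, complex IV 16 and complex V 15, and the 82 genes stood on 22 chromosomes. All cells were transfected with 10 nM of an siRNA for 48 h. The siRNA si4 and the siRNA si5 were 2 designs against ZSCAN5A, a zinc finger gene. The siRNA si1 was a design against its paralog ZSCAN5B, and the control was a scrambled siRNA. By the paper's qRT-PCR, the paralog ZSCAN5D was also lower with si4, si5 and, least, si1, and ZSCAN5B was higher with si4. The comparisons are named by their target, although other paralogs moved too. Each treatment was sequenced as 1 library, so no ratio has a replicate check, and si4 against si5, which are different reagents, gives the only view of spread.

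Oxidative phosphorylation takes place in the inner mitochondrial membrane. Complex I accepts electrons from NADH and complex II accepts them from succinate, complex III passes them to cytochrome c, complex IV hands them to oxygen, and complex V, the ATP synthase, uses the proton gradient that complexes I, III and IV build. Complex II is encoded wholly in the nucleus, and the other complexes also hold subunits made from mitochondrial DNA. Those mitochondrial genes had no row under the symbols searched, so none was analysed here. The transcription factors NRF1, GABP (an ETS family factor) and YY1 are known to act on promoters of many nuclear subunit genes.

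Promoter sequence is shown for 1 gene of each complex, because nearly all expressed subunit genes lay above the control, whatever their complex. Each gene had the highest ratio in the si4 and si5 comparison among genes of its complex with a single promoter window. The windows of 300 bases are RefSeq sequence of GRCh38.p14, printed 5′ to 3′ on the gene's strand, from 250 bases before to 50 bases after the transcript start. Capitals mark 3 motifs on either strand, CCGGAAG for ETS factors, GCATGCGC for NRF1 and AAGATGG for YY1, and the 2 NRF1 matches in SDHD overlap.
SDHD, chr11:112086623-112086922, plus strand: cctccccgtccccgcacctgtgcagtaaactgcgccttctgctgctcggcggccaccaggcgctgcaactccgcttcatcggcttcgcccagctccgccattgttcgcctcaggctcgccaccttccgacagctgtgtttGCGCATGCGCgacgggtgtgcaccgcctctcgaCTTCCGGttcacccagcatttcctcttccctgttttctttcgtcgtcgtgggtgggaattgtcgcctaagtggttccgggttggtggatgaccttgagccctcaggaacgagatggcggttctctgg
UQCR11, chr19:1605413-1605712, minus strand: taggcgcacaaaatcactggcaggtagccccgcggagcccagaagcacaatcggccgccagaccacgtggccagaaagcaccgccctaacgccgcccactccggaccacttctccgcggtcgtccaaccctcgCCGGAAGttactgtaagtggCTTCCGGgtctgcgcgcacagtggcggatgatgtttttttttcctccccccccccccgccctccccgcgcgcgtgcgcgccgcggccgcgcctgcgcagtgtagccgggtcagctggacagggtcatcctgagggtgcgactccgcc
COX6B1, chr19:35648073-35648372, plus strand: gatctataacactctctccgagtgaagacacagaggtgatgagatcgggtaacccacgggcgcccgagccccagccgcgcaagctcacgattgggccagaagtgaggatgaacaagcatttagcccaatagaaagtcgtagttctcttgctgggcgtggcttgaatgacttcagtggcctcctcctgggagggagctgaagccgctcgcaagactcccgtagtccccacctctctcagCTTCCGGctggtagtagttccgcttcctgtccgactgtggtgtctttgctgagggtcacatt
NDUFV3, chr21:42893059-42893358, plus strand: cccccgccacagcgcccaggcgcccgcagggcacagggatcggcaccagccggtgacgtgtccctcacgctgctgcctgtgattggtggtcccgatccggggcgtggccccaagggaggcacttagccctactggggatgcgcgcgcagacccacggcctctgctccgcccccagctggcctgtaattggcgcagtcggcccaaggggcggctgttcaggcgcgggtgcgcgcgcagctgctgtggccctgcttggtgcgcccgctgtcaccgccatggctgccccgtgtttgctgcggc
ATP5G1, chr17:48892537-48892836, plus strand: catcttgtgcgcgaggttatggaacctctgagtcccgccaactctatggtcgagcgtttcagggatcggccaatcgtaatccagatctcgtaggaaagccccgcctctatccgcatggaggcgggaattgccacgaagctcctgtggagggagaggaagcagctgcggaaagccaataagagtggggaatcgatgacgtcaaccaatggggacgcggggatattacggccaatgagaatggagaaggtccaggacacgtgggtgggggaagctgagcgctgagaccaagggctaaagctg
SDHD held 1 ETS match and 2 overlapping NRF1 matches, UQCR11 held 2 ETS matches and COX6B1 held 1. The windows of NDUFV3 and ATP5G1 held none of the 3 motifs. ATP5G1 held 4 CCAAT boxes, and NDUFV3 and COX6B1 held 2 each. Of the 75 expressed subunit genes, 62 matched at least 1 promoter window, giving 75 windows. The ETS motif was found in 28% of these windows, in 16.7% of the windows of all expressed genes and in 10.3% of all windows of this length. The NRF1 motif stood in 20% of subunit windows, against 4.76% for expressed genes and 3.05% for all windows. For the YY1 motif the shares were 25.3%, 6.83% and 5.84%. The Sp1 motif GGGCGG, at 60%, 66.3% and 45.0%, and the CCAAT box, at 30.7%, 34.9% and 34.6%, were not more frequent in subunit windows than in those of expressed genes. These are counts of letters and not of bound sites.

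The targeted genes were read first. ZSCAN5A stood at 0.730 FPKM (si4), 0.713 (si5), 2.53 (si1) and 2.42 (control), where FPKM counts fragments by kilobase of transcript and by library size. Both ZSCAN5A libraries were thus at 30.2% and 29.5% of the control. ZSCAN5B was nearly silent, in whole-fragment proportions of 6, 17, 16 and 15 with si4, si5, si1 and the control. It stood at 105% of the control with si1. The si1 library is therefore called the library labelled ZSCAN5B knockdown. The paper's qRT-PCR and Western blots of HEK 293 cells gave lower ZSCAN5B transcript and protein with its siRNA. So few fragments cannot settle this difference. Estimated depth was 54600000 to 83000000 fragments in the siRNA libraries and 53700000 in the control. The paper states a narrower range of reads per sample, and the estimate was not checked against sequenced reads. The summed FPKM was 537181 to 546239 in the 3 siRNA libraries and 488036 in the control. Of the cell markers, VIM was between 270 and 359 FPKM and CDH2 between 33.8 and 35.1, the sum over 8 HEK 293 markers was 374 to 465, and the 7 markers of other cell types summed to 4.62 to 7.28, with COL1A2 listed at 0 in every library. PAX2, a kidney marker near the expression limit, was lower in all siRNA libraries, at 0.584, 0.615 and 0.608 FPKM against 1.16, and CGA, a hormone subunit of trophoblast, was higher, at 3.48, 4.85 and 5.66 against 2.82. Its trophoblast partner CGB was lower, at 0.015, 0.013 and 0.010 FPKM against 0.026, and so was COL1A1, at 1.10, 1.38 and 1.56 against 1.85. The part of these markers in the ratios below was not tested.

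Most nuclear subunit genes were expressed. Of the 82 subunit genes, 75 reached 1 FPKM in at least 1 library and 74 reached it in every library. The median control level of the 75 was 134.8 FPKM, against 9.95 over 13078 expressed genes. Complex IV had the highest median control level, 412.9 FPKM, followed by complex V with 259.1, complex III with 103.6, complex I with 91.9 and complex II with 75.4. The complexes overlapped widely, since complex I ran from 0.941 to 377.7 FPKM and complex III from 20.5 to 669.2. The lowest complex I value was that of NDUFA4L2, a restricted relative of NDUFA4, and the next was NDUFA10 at 21.5 FPKM. The subunit genes together made up 3.35% (si4), 3.41% (si5), 3.47% (si1) and 3.14% (control) of summed FPKM.

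**Figure D1:**
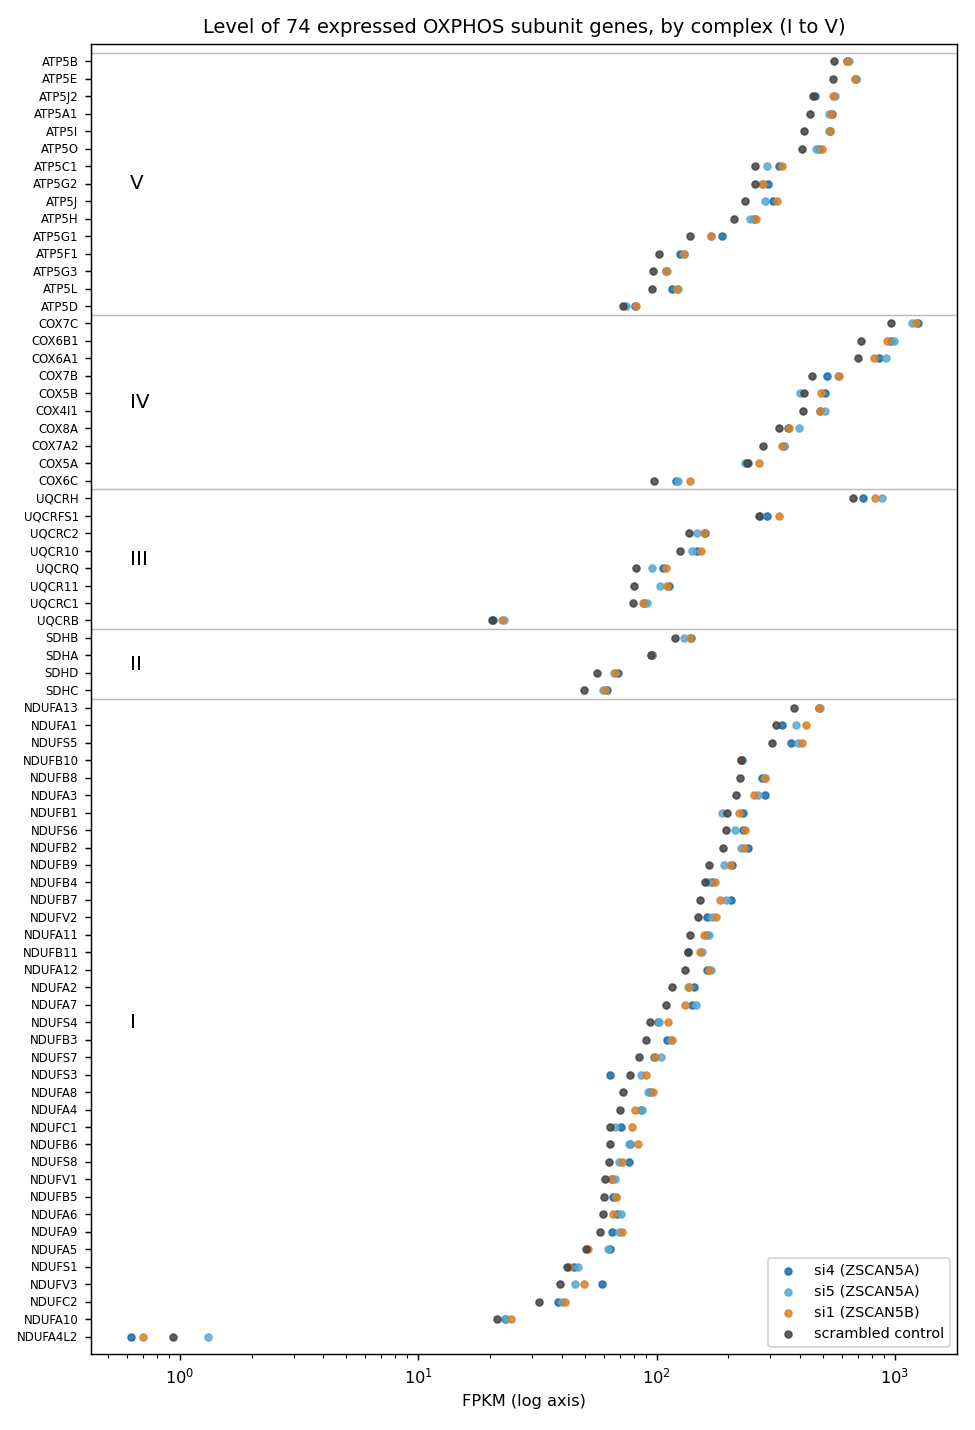
FPKM (log axis) of 74 of the 75 expressed subunit genes, a row for each gene, grouped by complex and ordered by the control level; points are the 4 libraries. The control is the leftmost point in 69 of 74 rows, and the distance to the other points is small beside the differences in level between genes.

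The question was whether knockdown of a ZSCAN5 gene changed these transcripts. The paper lists a mitochondrion cluster among the functions of genes raised after ZSCAN5B knockdown, a wider category than complex subunits. No subunit gene passed 1.5-fold in either comparison. For the mean of si4 and si5 over the control, 0 of 75 passed it, and 3.79% of 12993 expressed genes did. For the library labelled ZSCAN5B knockdown, 0 of 74 passed it, and 4.01% of 12921 genes did. Below that limit, nearly all subunit genes lay above the control. In bulk RNA, more transcript in every cell and more cells that carry the transcript cannot be told apart. In the ZSCAN5A comparison 73 of 75 were higher, with a median log2 ratio of 0.25 and quartiles of 0.14 and 0.32, a median of 1.19-fold, while 46.7% of all genes were higher and their median was -0.02. In the library labelled ZSCAN5B knockdown 74 of 74 were higher, with a median log2 ratio of 0.26 and quartiles of 0.18 and 0.34, while 48.5% of all genes were higher and their median was -0.01. A log2 ratio above 0.32 was reached by 16 of 75 subunit genes in the first comparison, with 5.14% of all genes, and by 21 of 74 in the second, with 6.7% of all genes. The comparisons share the 1 control library, so the second is not a separate observation of the first.

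The control was the lowest of the 4 libraries for 69 of 75 subunit genes, and for 29.9% of 13078 expressed genes. The lowest value was in si5 for 4 subunit genes and in si4 for 2. Between si4 and si5 the subunit genes were split, 37 higher and 38 lower with si5, and the median over genes of the SD of their log2 levels was 0.05. Counting error was smaller still, with a median SD of 0.023 for a log2 ratio of the si1 library to the control. Neither measures how a second control culture would vary. The limma fit on log2(FPKM + 1) takes its spread from si4 and si5 alone, as si1 and the control had 1 library each. No p-value or count of genes passing is therefore given from it. On the log2(FPKM + 1) scale, the median log2 ratio of subunit genes was 0.251 for ZSCAN5A and 0.259 for the si1 library. The medians of all genes on that scale were -0.017 and -0.0086.

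Transcript length and level moved with the ratio across all genes. The subunit genes had short transcripts, with a median of 783.5 nucleotides against 3310 over all expressed genes. Over the shortest decile of all genes the median log2 ratio was 0.17 in both comparisons, and over the longest decile it was -0.13 and -0.15. By level, the highest decile of all genes had medians of 0.16 and 0.17, and it contained 68 and 67 of the subunit genes. Of the 445 genes in both the shortest and the highest decile, 48 were subunit genes, with median log2 ratios of 0.26 for ZSCAN5A and 0.27 for the si1 library, and the control was the lowest library for 44 of them. The other 397 genes had a median of 0.23 in both comparisons, and the control was the lowest library for 82.4%.

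Ratios were also taken relative to like genes. After subtracting the median of all genes in the same bin of length and GC content, the median log2 ratio of the subunit genes was 0.11 in both comparisons, with 58 of 74 and 66 of 73 above 0. With bins of length and level it was 0.050 with 48 of 74 above 0 for ZSCAN5A, and 0.055 with 52 of 73 above 0 for the si1 library. Dividing each library by its summed FPKM, which was lowest in the control, gave medians of 0.10 and 0.12, with 54 of 75 and 64 of 75 higher, while the median of all genes moved to -0.18 and -0.15. The control was then lowest for 44 of 75, against 10.7% of all genes. The part of length, level and library composition in the ratios was not tested.

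**Figure D2:**
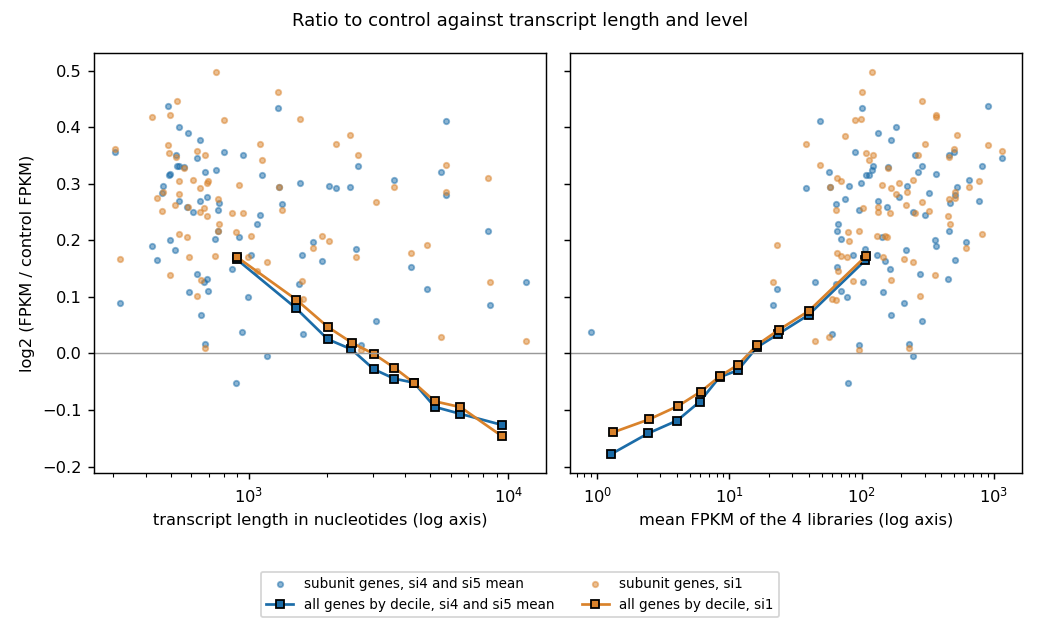
Log2 ratio to the control against transcript length (left, nucleotides, log axis) and mean level (right, FPKM, log axis) for the subunit genes (points) and for all expressed genes as decile medians (squares joined by lines), in blue for the mean of si4 and si5 and in orange for si1. The all-gene line falls from 0.17 in the shortest decile to -0.13 and -0.15 in the longest, and most subunit genes lie in the shortest and highest deciles.

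The 5 complexes differed little in the size of the ratio. The median log2 ratio for ZSCAN5A was 0.24 in complex I, 0.22 in II, 0.19 in III, 0.29 in IV and 0.25 in V. With si1 the medians were 0.25, 0.23, 0.28, 0.25 and 0.29. The highest and lowest complex differed by 0.10 and 0.06 in the respective comparisons, less than the distance between the quartiles within complex I in each. The order was not stable, as complex IV was first with ZSCAN5A and complex V with si1, while after correction by length and level complex V was first with ZSCAN5A, at 0.08, and complex III with si1, at 0.12. The gap moved as well, to 0.047 for ZSCAN5A with correction by length and GC content and to 0.12 for si1 with correction by length and level. The shares of the subunit signal moved little, complex I with 30.0% to 30.4% of summed subunit FPKM in the 4 libraries, complex IV with 30.0% to 30.8%, complex V with 27.8% to 28.1%, complex III with 9.06% to 9.63% and complex II with 1.92% to 2.09%.

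**Figure D3:**
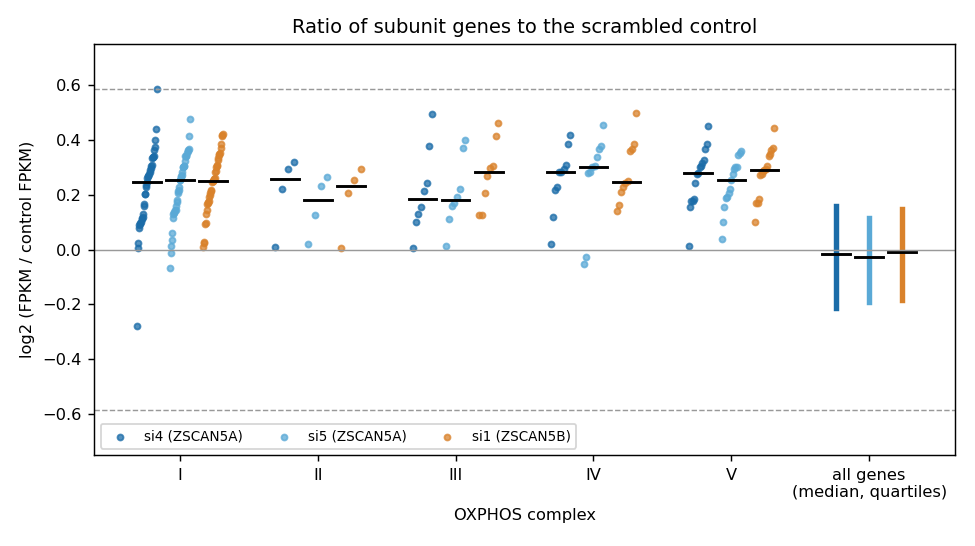
Log2 ratio of each expressed subunit gene to the scrambled control, by complex and library (points), with the median of each set (black bar) and, at the right, the median and quartiles of all expressed genes; dashed lines mark 1.5-fold. The complex medians lie between 0.18 and 0.31, with all-gene medians near 0, and 1 point, NDUFV3 with si4, reaches the upper dashed line.

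In complex I, 7 nuclear core subunits build the arm that holds the flavin and the iron-sulfur clusters. NDUFV1, which binds NADH and the flavin, was at 64.9 FPKM (si4), 66.7 (si5), 64.6 (si1) and 60.5 (control). NDUFV2, its iron-sulfur partner, was at 162.5, 169.9, 177.9 and 149.7 FPKM in the same order of libraries, which is kept from here on. NDUFS1, the largest subunit of the electron input arm, was at 44.9, 47.0, 42.8 and 42.1. The control was the lowest in all 3 genes, with narrow gaps in NDUFS1 and NDUFV1. NDUFS7 and NDUFS8, which hold the clusters on the way to ubiquinone, were at 97.6, 104.4, 98.4 and 84.7 FPKM and at 76.3, 69.5, 71.3 and 63.3 FPKM. In both, all siRNA libraries lay above the control. The paper counts NDUFS7 among genes raised past 1.5-fold after ZSCAN5B knockdown, whereas its ratio with si1 was 1.16-fold here. NDUFS3, a subunit of the connecting arm, was at 63.9, 85.6, 89.9 and 77.5 FPKM, so that si4 alone lay under the control and the 2 ZSCAN5A siRNAs stood on opposite sides of it. The core subunits had a median log2 ratio of 0.13 for ZSCAN5A and 0.17 for si1, and 30 accessory subunits had 0.27 in both. The difference was not tested.

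Among accessory subunits NDUFV3, a small subunit of the NADH-binding module, was at 58.9 FPKM (si4), 45.5 (si5), 49.4 (si1) and 39.2 (control). It passed 1.5-fold in a single siRNA library, with a log2 ratio of 0.59 for si4 against 0.21 for si5. The other subunit gene of the 75 to do so was NDUFA4L2, lower with si4 at -0.60 on the log2 scale and under 1 FPKM in both si4 and the control. Of all genes, 149 of 12928 were more than 1.5-fold higher and 673 lower with si4, and 76 and 381 of 12922 with si5. NDUFB10, an accessory subunit of the membrane arm, was nearly level, at 228.8, 227.0, 226.7 and 225.2 FPKM, and its log2 ratio of 0.01 with si1 was among the 3 lowest there. NDUFA4, named for complex I but found as a component of complex IV, was at 85.6, 87.0, 80.8 and 70.4 FPKM. Both NDUFA4 and NDUFA4L2 were counted in complex I here, NDUFA4 among its accessory subunits.

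Complex II was flat in its largest subunit and higher in the others. SDHA, the flavoprotein that oxidises succinate, was at 95.2 FPKM (si4), 96.0 (si5), 95.0 (si1) and 94.6 (control), log2 ratios of 0.01 in both comparisons and among the 3 lowest in each. SDHB, the iron-sulfur subunit, was at 139.7, 130.7, 138.4 and 119.8 FPKM. The membrane anchors SDHC and SDHD were at 61.9, 59.6, 60.7 and 49.5 FPKM and at 68.7, 66.0, 66.9 and 56.1 FPKM. In SDHB, SDHC and SDHD all siRNA libraries lay above the control, with log2 ratios of 0.17 to 0.29 for ZSCAN5A, whereas the 4 SDHA values were nearly equal. SDHA also has near-identical pseudogene copies that can share its reads, and their part in its values was not tested.

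In complex III, the core proteins UQCRC1 and UQCRC2 support the enzyme's matrix side and UQCRFS1 is the Rieske iron-sulfur protein. UQCRC1 was at 88.9 FPKM (si4), 91.3 (si5), 87.3 (si1) and 79.9 (control), and UQCRC2 was at 158.9, 148.2, 158.3 and 137.1. UQCRFS1 was at 289.1, 272.3, 324.7 and 269.7 FPKM, with si5 close to the control and si1 the highest. UQCR11, a small accessory subunit, was at 113.0, 103.5, 110.4 and 80.1 FPKM. Its log2 ratios of 0.43 and 0.46 were among the 3 highest in both comparisons.

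Complex IV held the most abundant transcripts of the set. COX7C, a small membrane subunit, was at 1249 FPKM (si4), 1183 (si5), 1227 (si1) and 957.3 (control). COX6B1, which faces the intermembrane space, was at 961.8, 985.6, 929.0 and 719.5 FPKM, the highest log2 ratio of the ZSCAN5A comparison at 0.44. COX6A1, a regulatory subunit, was at 853.3, 913.0, 812.2 and 701.8 FPKM. In each of these genes the siRNA libraries lay apart from the control. COX6C, another small subunit, had the highest ratio with si1, 0.50 on the log2 scale, at 120.8, 123.5, 137.7 and 97.6 FPKM. COX5A, which binds the matrix face, had the ZSCAN5A siRNAs on opposite sides of the control, at 242.8, 235.0, 267.9 and 239.6 FPKM and a log2 ratio of -0.004.

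In complex V, the catalytic F1 head is built from alpha, beta, gamma, delta and epsilon subunits. The alpha subunit ATP5A1 was at 544.9 FPKM (si4), 526.0 (si5), 537.5 (si1) and 440.8 (control), and the beta subunit ATP5B was at 630.5, 641.0, 631.0 and 554.8. The gamma subunit ATP5C1, the rotating shaft, was at 325.7, 289.3, 335.7 and 259.6 FPKM. For these 3 the control was below every siRNA library. The delta subunit ATP5D was at 80.9, 74.6, 81.7 and 72.5 FPKM, and the epsilon subunit ATP5E was at 686.9, 676.1, 676.2 and 551.4. ATP5J, coupling factor 6 of the stalk, was at 307.4, 285.2, 320.6 and 235.5 FPKM, and its log2 ratio of 0.45 with si1 was among the 3 highest there. The 7 stalk and membrane genes had median log2 ratios of 0.32 and 0.34.

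The c ring, the rotor through which protons pass, is made from 3 genes that encode the same mature protein. ATP5G1 was at 188.3 FPKM (si4), 169.8 (si5), 168.9 (si1) and 137.9 (control). ATP5G2 was at 293.2, 277.8, 278.2 and 259.1 FPKM, and ATP5G3 at 109.5, 110.8, 109.1 and 96.9. ATP5G1 made up 31.9%, 30.4%, 30.4% and 27.9% of the summed c ring FPKM, the lowest share being in the control, while ATP5G2 made up 49.6%, 49.8%, 50.01% and 52.5%. No replicate shows how far such shares vary within a treatment.

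Isoforms known from muscle, heart, lung or testis were nearly silent beside their common partners. COX4I2, COX6A2 and COX7B2 were listed at 0 in all 4 libraries, while COX4I1, COX6A1 and COX7B were at 411.4, 701.8 and 446.3 FPKM in the control. COX7A1 corresponded to about 3 fragments with si4 and 2 with si5 and was listed at 0 with si1 and in the control, beside COX7A2 at 280.6 FPKM in the control. COX8C corresponded to 3, 2, 2 and 4 fragments and COX6B2 to 21, 19, 12 and 13, beside COX8A at 327.0 and COX6B1 at 719.5 FPKM. These fragment numbers are the smallest whole numbers in the proportions of the depth-scaled values, and not measured counts. Depth and transcript length instead gave 6.2 control fragments for COX8C and 6.4 for COX6B2. Such numbers are too low to rank the libraries. UQCRHL, a copy of UQCRH that can share its reads, corresponded in the same way to 10, 25, 12 and 11 fragments. Depth and transcript length gave 4.2 for UQCRHL in the control. UQCRHL was at 0.237, 0.419, 0.306 and 0.285 FPKM, and UQCRH was at 731.7, 881.9, 826.5 and 669.2 FPKM. NDUFA4L2, a hypoxia-responsive relative of NDUFA4, was at 0.622, 1.31, 0.703 and 0.941 FPKM, so that si4 and si5 lay on opposite sides of the control.

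**Figure D4:**
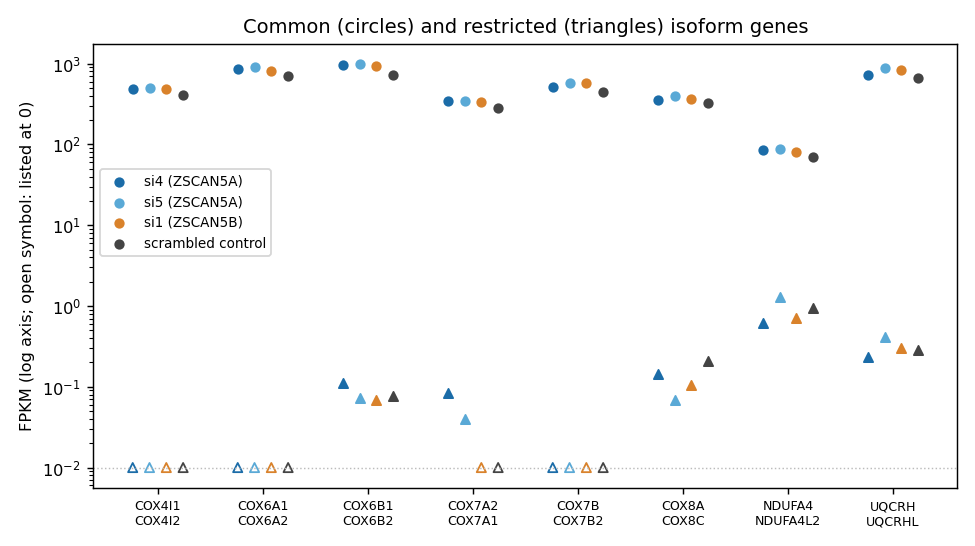
FPKM (log axis) of 8 common isoform genes (circles) and their restricted partners (triangles) in the 4 libraries, with open triangles on the dotted line for values listed at 0. Common genes stand between 70.4 and 986 FPKM, and of the restricted genes NDUFA4L2 alone reaches 1 FPKM, with si5.

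Of the 9 rows that share the name but are no subunit genes, 6 were above the limit, and 5 of the 6 were higher than the control in each comparison, with median log2 ratios of 0.15 and 0.11. UQCRBP1, a pseudogene row that can share reads with UQCRB, had log2 ratios of 0.22 and 0.28, COX4NB 0.12 and 0.25, ATP5SL 0.19 and 0.09 and ATP5S 0.19 and -0.04. COX7A2L, a supercomplex factor, was at 99.6 FPKM (si4), 112.3 (si5), 110.1 (si1) and 104.8 (control). ATP5J2-PTCD1, a read-through transcript that shares reads with ATP5J2, was at 2.44, 4.00, 4.08 and 3.71, the 1 row lower for ZSCAN5A. ATP5L2 was listed at 0 in every library.

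Other genes of the pathway came from lists of subunits with other names, assembly factors, regulators and neighbouring enzymes. None of these genes passed 1.5-fold in either comparison, which 3.79% of all genes did for ZSCAN5A and 4.01% for si1. The lists were not adjusted for length or level, and the part of these in the differences between lists was not tested. Of all genes, 46.7% were higher than the control for ZSCAN5A and 48.5% for si1. All 6 subunit and cytochrome c genes with other names were higher in both, with medians of 0.27 for ZSCAN5A and 0.39 for si1. USMG5, an ATP synthase subunit, had log2 ratios of 0.44 and 0.50, C14orf2, another one, had 0.32 and 0.39, and ATPIF1, the inhibitor of the synthase, had 0.22 and 0.19. NDUFAB1, the acyl carrier protein of complex I, had 0.25 and 0.46, CYCS, cytochrome c, had 0.25 and 0.40, and CYC1, cytochrome c1, had 0.30 and 0.13.

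The assembly factors of complex I were higher in 14 of 14 for ZSCAN5A and 13 of 14 for si1, with medians of 0.20 and 0.25. ECSIT, at 22.4 FPKM (si4), 16.2 (si5), 17.0 (si1) and 13.5 (control), had the highest ratio for ZSCAN5A, 0.51 on the log2 scale, followed by TMEM126B at 0.41, and NDUFAF2 and TMEM126B had the highest for si1, 0.46 and 0.39. The lowest were C2orf56 and ACAD9 at 0.02 and 0.04 for ZSCAN5A, and ACAD9 and NDUFAF3 at -0.07 and 0.04 for si1. For complex IV, 20 of 23 and 21 of 23 factors were higher, with medians of 0.14 and 0.17. For ZSCAN5A they ran from COX18, a membrane insertase, at -0.17 and CMC1 at -0.09 to COX14 at 0.33 and SELRC1 at 0.38. For si1 they ran from COX19, a factor of copper delivery, at -0.16 and COX18 at -0.05 to C1orf31 at 0.38 and COX14 at 0.43. All 6 complex III factors were higher, with medians of 0.18 and 0.14, from TTC19 at 0.05 and 0.04 to MNF1 at 0.35 and 0.28. Next to these ends stood UQCC at 0.09 and C11orf83 at 0.24 for ZSCAN5A, and BCS1L at 0.10 and UQCC at 0.17 for si1. The 4 factors of complex II were split 2 and 2 in both comparisons, with C6orf57 at -0.26 and -0.05, SDHAF2 at -0.06 and -0.04, SDHAF1 at 0.24 and 0.14 and ACN9 at 0.26 and 0.25. Of the 3 complex V factors, 1 was higher for ZSCAN5A and 2 for si1, with ATPAF2 at -0.10 and -0.17, ATPAF1 at -0.03 and 0.003 and TMEM70 at 0.14 and 0.29.

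The regulators of mitochondrial biogenesis were nearer to the control, 10 of 14 higher with a median of 0.09 for ZSCAN5A. For si1, 8 of 14 were higher, with a median of 0.04. Over all genes, 46.7% and 48.5% were higher in these comparisons. GABPA, the DNA-binding subunit of GABP, was at 23.3 FPKM (si4), 23.0 (si5), 23.3 (si1) and 18.0 (control), log2 ratios of 0.37 and 0.38. NRF1 was at 7.43, 7.98, 6.81 and 7.53 FPKM and YY1 at 38.3, 36.1, 34.0 and 34.6, with overlap between siRNA libraries and control. PPRC1, a coactivator, was at 6.32, 5.80, 5.84 and 7.75 FPKM, the lowest ratios of the list at -0.35 and -0.41. ESRRA, a nuclear receptor, was next to the highest for ZSCAN5A at 0.33, and TFB2M, a mitochondrial transcription factor, for si1 at 0.30. PPARGC1A, the coactivator also called PGC-1 alpha, was at 1.37, 1.51, 1.70 and 1.70 FPKM. TFAM, which packages mitochondrial DNA, was at 62.2, 57.5, 59.6 and 51.0.

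The enzymes of the TCA cycle, which supply the electrons, were split 7 and 7 for ZSCAN5A with a median of 0.01. For si1, 9 of 14 were higher, with a median of 0.06. The shares of all genes that were higher were 46.7% and 48.5%. IDH3B, a subunit of isocitrate dehydrogenase, had log2 ratios of 0.37 and 0.39, with SUCLA2 at 0.39 for ZSCAN5A and DLD at 0.25 for si1 as the other high values. OGDH and IDH2 were lowest for ZSCAN5A, at -0.14 and -0.13, and CS and DLST for si1, at -0.14 and -0.13. CS, citrate synthase, was at 88.6 FPKM (si4), 92.3 (si5), 82.7 (si1) and 90.8 (control). The ADP/ATP and phosphate carriers, which serve the ATP synthase, were higher in all 5 rows of both comparisons, SLC25A6 standing on 2 rows with the same values. SLC25A3, the phosphate carrier, was nearest to the control at 0.01 for ZSCAN5A and 0.11 for si1. SLC25A4, SLC25A5 and SLC25A6, carriers of ADP and ATP, had 0.03, 0.15 and 0.34 for ZSCAN5A and 0.19, 0.17 and 0.16 for si1.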

How the data were processed

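RNA from 4 HEK 293 cultures was sequenced as stranded mRNA libraries (labels and paper name different kits). Per the labels, the authors used CASAVA 1.8.2, Trimmomatic 0.30, TopHat2 2.1.0 and Cufflinks 2.2.1 on hg19. The gene annotation was not given in the sources used here. The authors deposited 1 table of FPKM values, used as deposited, with 0 further per-sample columns. A 0 can be a failed estimate, since EEF1A1, used by every cell, is listed at 0 with si5.

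The mean of si4 and si5, and si1, were divided by the control for rows of at least 1 FPKM in some library and above 0 on both sides, with no pseudocount and no test at the 1.5-fold limit. The Benjamini-Hochberg step that the paper's methods state for ZSCAN5A was not repeated, and limma 3.58.1 (R 4.3.3) was run in both comparisons as an alternative. Other alternatives were the expression limit, pseudocount, scaling, fold limit and correction by length and GC content. Summed-FPKM scaling and correction by length and level were chosen after seeing the data. Transcript lengths came from GENCODE canonical transcripts on GRCh37 (81 of 82 subunit genes).

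Depth was estimated from 1745 genes under 0.1 FPKM, of which 71.1% had values in whole-fragment proportions (tolerance 0.001, no number above 40). The absolute number of fragments rests on 1071 of these genes. Counting errors use this estimate and cover fragment sampling only. In simulated data with 200 of 12411 genes changed 2-fold, the fold limit recovered 100% with 0 false calls in both comparisons. With limma it was 100% with 20 and 16 false calls. The simulated noise was equal for all genes and smaller than the median SD of 0.081 between si4 and si5 over all genes. The planted change lay far above the 1.5-fold limit, so the recovery says nothing on ratios as small as those of the subunit genes.

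Members and gene lists were chosen with earlier results of these data known. Named genes were core subunits of complexes I to III, F1 and c ring genes, the 3 most abundant complex IV genes, the 3 highest and 3 lowest ratios among subunits of at least 5 FPKM in the control, genes past the limit, restricted isoforms with their partners, and the 2 highest and 2 lowest ratios of each pathway list. VIM, CDH2, CGB, COL1A1, YY1, TFAM and the rows that are no subunit genes were added after their values were seen. The values of 1 core subunit are not reported here.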

Additional observations from a re-analysis of the deposited data

How the results depend on the processing

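Of 84 alternative values, 70 stayed within the siRNA spread of the reported value or, for counts, within 1.5 times of it, and 14 moved. Counts and gaps between complexes cannot be negative, so only the median log2 ratios could change direction, and 0 did. Without an expression limit 1 subunit gene passed 1.5-fold in each comparison, and at a lower limit of 0.32 on the log2 scale 16 and 21 did. Correction by length and GC content gave medians of 0.11 and 0.11 and a gap between complexes of 0.047 for ZSCAN5A. Correction by length and level gave medians of 0.050 and 0.055 and a gap of 0.12 for si1. Summed-FPKM scaling gave medians of 0.10 and 0.12, and the control was then lowest for 44 genes. Leaving out si4 or si5 left 0 to 1 genes past 1.5-fold for ZSCAN5A, the 1 being NDUFV3 with si4 alone. Of all genes, 149 of 12928 were more than 1.5-fold higher and 673 lower with si4 alone. With si5 alone these were 76 and 381 of 12922. The cause of these moves was not tested. No paired analysis was possible because each siRNA and the control had 1 library. With 1 control library, variation between cultures cannot be told apart from the treatments, and at the estimated depth ZSCAN5B, the restricted isoforms and the weakest name-sharing rows rest on few fragments.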
